A study of Mus musculus with 16 samples.

Results

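The genes described here are 8 genes of the melanocyte lineage, measured in mouse sciatic nerve before and after a crush injury: Tyr, Tyrp1, Dct, Pmel, Mlana, Slc45a2, Mitf and Ednrb. They are 8 of the 18193 genes that the array's probe table names from a probe set of a single gene. Each was read from 1 of its probe sets, chosen by its highest mean signal over all 16 arrays, out of 16 probe sets for the 8 genes. That overall mean is given only as a description. The genes were also picked with earlier results of these arrays known.

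Melanocytes make the pigment melanin in an organelle called the melanosome. Some of them arise in the embryo from Schwann cell precursors, glial cells that travel along growing nerves, and both melanocytes and Schwann cells descend from the neural crest. Mitf is the transcription factor that switches on much of the pigment programme, including Tyr, Tyrp1 and Dct, which encode the melanin-making enzymes. Pmel builds the fibrils on which melanin is laid down, Mlana is a melanosomal protein used as a melanocyte marker, and Slc45a2 is a melanosomal transporter. Ednrb is an endothelin receptor that melanocyte precursors need and that astrocytes, Schwann cells and endothelium also carry. When a nerve is crushed, the axons beyond the injury degenerate, Schwann cells dedifferentiate and divide, and macrophages enter.

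The groups were WldS nerves and C57BL/6 nerves, each uninjured (day 0) or taken 3, 7 or 14 days after injury, with 2 arrays per group. WldS mice (C57BL/6 OlaHsd-Wlds) carry a spontaneous dominant mutation that delays degeneration of injured axons, and C57BL/6 mice are the wild type strain. There were 56 mice per strain, aged 8 to 12 weeks, and the left nerve was microcrushed at mid-thigh in all but the naive mice. A 4 mm stretch lying 1 to 5 mm beyond the lesion was pooled within a group, and each array is taken as a separate pool, since the labels call them biological replicates. The number of mice per pool is not stated, nor whether the pools of a group came from separate dissections, so p-values measure the spread between these pools. In pooled tissue, fewer cells of a type and less RNA per cell cannot be told apart.

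Values are log2 array signals. Array medians lay between 6.42 and 6.49, no array was a copy of another, and a probe set counted as dim when its mean over the arrays was below 5.37, the 30th percentile. In all, 14545 genes passed and were tested with limma over all 16 arrays, and a gene was called at a Benjamini-Hochberg adjusted p below 0.05 over those genes. Of the 8 melanocyte genes, 7 passed, and Mlana, with a mean of 4.64, did not. Tyr was the nearest above the limit with a mean of 5.73. Tyrp1, with a mean of 6.13, passed only through the groups in which it was high, because 10 of its 16 arrays were below 5.37. Sox10, a transcription factor of Schwann cells, had group means of 11.06 to 12.16, as fits nerve tissue. Of the 7 tested genes, between 1 and 3 were called in each comparison with day 0, in which 21.3% to 41% of all genes were called, and the changes above 1 log2 unit lay in Tyrp1 and Ednrb.

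On 2 arrays, WldS day 0 replicate 1 and WldS day 14 replicate 2, the 3′ probe sets of the control genes actin and Gapdh exceeded the 5′ ones by 3.81 and 3.23 log2 units, against 1.63 to 2.46 on the others, a measure of RNA integrity. Without both, the WldS change at day 14 was 2.39 for Tyrp1 (limma adjusted p = 3.45e-05) and 2.27 for Ednrb (adjusted p = 7.15e-05), against 2.52 and 2.22 with them. The difference in change between the strains was then -3.94 at day 7 and -1.64 at day 14 for Tyrp1, and -1.17 at day 7 for Ednrb, each still called.

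Tyrp1, a melanosomal enzyme, was below the dim limit in uninjured nerve and at day 3 in both strains and rose later, at day 7 in C57BL/6 and at day 14 in WldS. In WldS nerves its signals were 4.66 and 4.78 at day 0, 4.56 and 4.63 at day 3, 5.03 and 4.90 at day 7, and 7.16 and 7.31 at day 14. In C57BL/6 nerves they were 5.04 and 4.76 at day 0, 4.83 and 4.44 at day 3, 9.05 and 9.01 at day 7, and 8.71 and 9.15 at day 14. The 6 arrays above the dim limit were thus all of C57BL/6 at days 7 and 14 and of WldS at day 14.

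**Figure D1:**
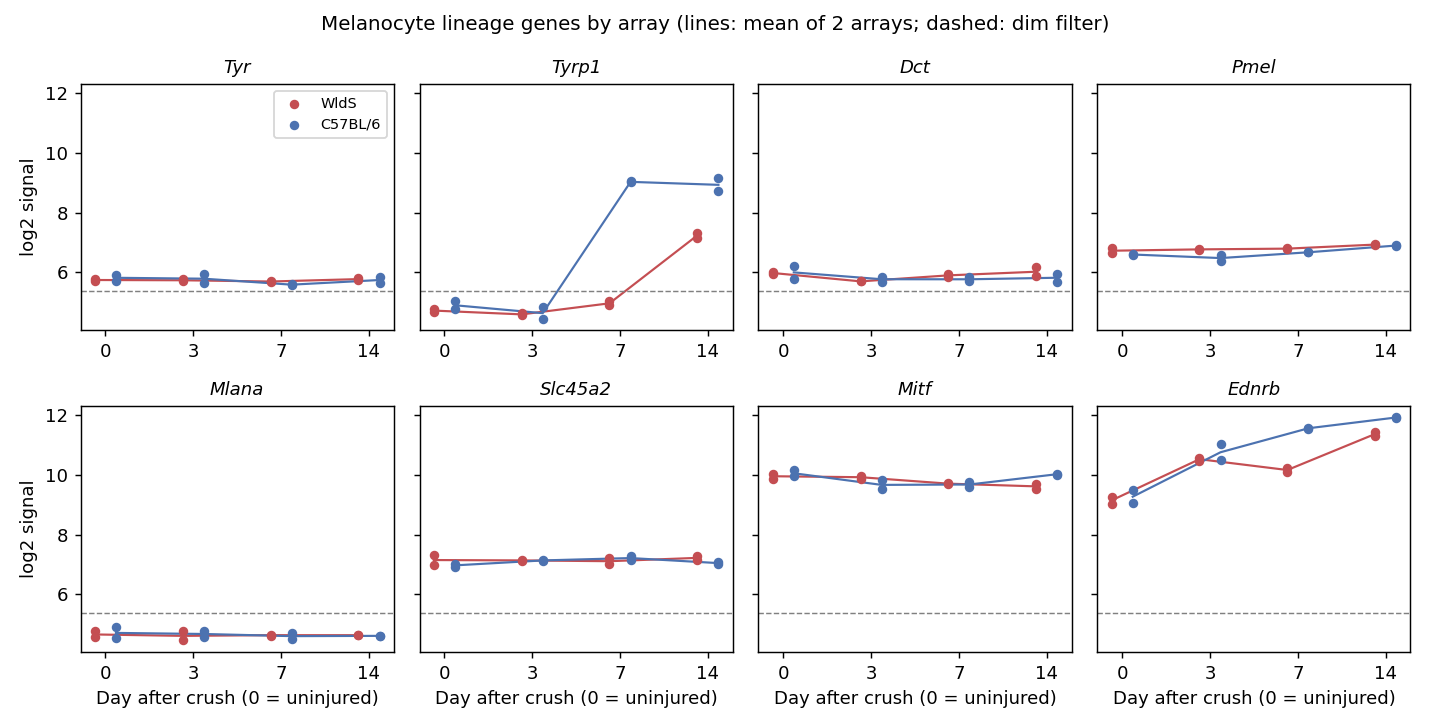
Log2 signal of the 8 melanocyte genes by days after injury (days evenly spaced, not to scale), with 1 point per array and lines through the means of 2 arrays, WldS and C57BL/6 in separate colours. Tyrp1 lies near 5 in both strains until day 3, then reaches about 9 in C57BL/6 at day 7, while 6 of the 8 genes stay within 0.45 log2 units between their lowest and highest group means.

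Relative to day 0, Tyrp1 in C57BL/6 was 4.13 ± 0.16 log2 units higher at day 7 (SE, 9.03 against 4.90, limma adjusted p = 2.68e-10). At day 14 it was 4.03 higher (8.93 against 4.90, adjusted p = 1.07e-09), and at day 3 it was not called (-0.27, adjusted p = 0.218). In WldS it was 2.52 ± 0.16 higher at day 14 (7.24 against 4.72, limma adjusted p = 1.27e-07), while the change of 0.24 at day 7 was not called (adjusted p = 0.264) and that of -0.13 at day 3 was not either (adjusted p = 0.579). The day 0 means lay below the dim limit, so these are differences of measured signal and no fold change is given.

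The rise in C57BL/6 took place between days 3 and 7, and that in WldS between days 7 and 14. From day 3, Tyrp1 was 4.40 higher at day 7 in C57BL/6 (limma adjusted p = 2.94e-09), from a day 3 mean below the dim limit, and its other probe sets gave 2.05 and 2.52 for the same step. Between days 7 and 14 no further change was called in C57BL/6 (-0.10, 95% interval -0.45 to 0.25), while in WldS Tyrp1 was 2.27 higher at day 14 than at day 7 (limma adjusted p = 5.02e-06), again from a mean below the limit, and the other probe sets gave 0.43 (adjusted p = 0.146, not called) and 1.18 (adjusted p = 0.0126).

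The strains were far apart at day 7. WldS minus C57BL/6, Tyrp1 differed by -4.07 log2 units at day 7 (mean 4.96 ± 0.09 in WldS against 9.03 ± 0.03 in C57BL/6, SD, n = 2 each, limma adjusted p = 2.83e-09). At day 14 the difference was -1.69 by the brightest probe set (7.24 ± 0.11 in WldS against 8.93 ± 0.31 in C57BL/6, 3.23-fold, limma adjusted p = 3.77e-05). The other probe sets gave smaller differences. By 1415862_at it was -0.98 (adjusted p = 0.00234 in a limma fit over all probe sets). By 1439409_x_at the means were 6.53 in WldS and 7.48 in C57BL/6. No strain difference was called at day 0 (-0.18, adjusted p = 0.568) or at day 3 (-0.04, adjusted p = 0.940). The change since day 0 was itself smaller in WldS: the WldS change minus the C57BL/6 change was -3.89 ± 0.23 at day 7 (SE, limma adjusted p = 5.38e-07) and -1.51 ± 0.23 at day 14 (limma adjusted p = 0.00506). In the order of the 8 groups, C57BL/6 at days 7 and 14 overlapped each other at the top, WldS at day 14 stood apart below them, and all lower groups differed from their neighbour by no more than 0.18.

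Tyrp1 has 3 probe sets on the array, and they shared the early rise in C57BL/6 but not the size of the late one in WldS. In a fit over all 45037 probe sets, the second probe set (1415862_at) was higher in C57BL/6 by 2.00 at day 7 (adjusted p = 4.96e-07) and by 1.43 at day 14. In WldS its arrays read 5.94 and 5.77 at day 14, against 5.78 and 5.68 at day 0, a change of 0.13 that was not called (limma adjusted p = 0.627). The third (1439409_x_at) was higher in C57BL/6 by 2.28 at day 7 and by 2.27 at day 14, and in WldS by 1.33 at day 14 (limma adjusted p = 0.00167). Its WldS arrays at day 14 read 6.15 and 6.92, against 5.22 and 5.19 at day 0. The late rise in WldS was therefore called by 2 of the 3 probe sets. The smaller change in WldS was called at day 7 by all 3 probe sets (-3.89, -2.31 and -2.14) and at day 14 by 2, the third giving -0.94 (limma adjusted p = 0.308). With a gene's probe sets averaged, the Tyrp1 change at day 14 was 1.33 in WldS (limma adjusted p = 9.83e-06) and 2.58 in C57BL/6 (adjusted p = 2.53e-08), and that from day 7 to day 14 in WldS was 1.3 (adjusted p = 0.000127).

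**Figure D2:**
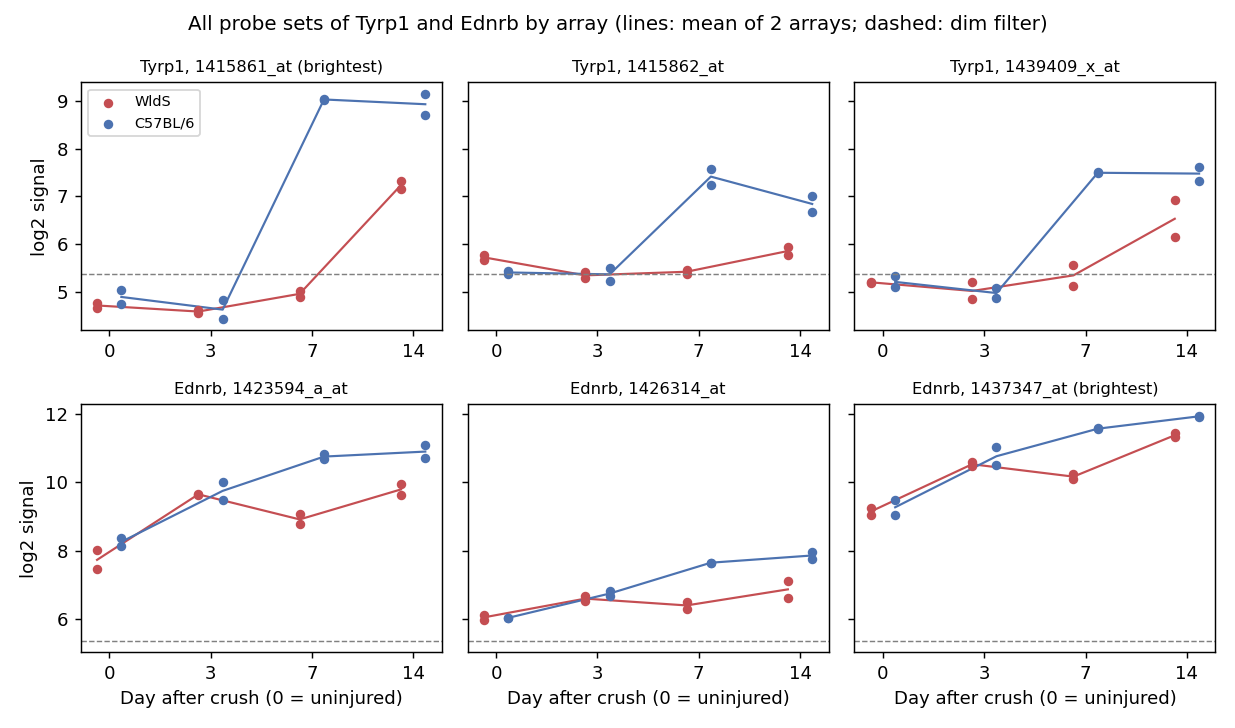
Log2 signal of each probe set of Tyrp1 and Ednrb by days after injury (days evenly spaced, not to scale), with 1 point per array and lines through group means for WldS and C57BL/6. All 3 Tyrp1 probe sets are high in C57BL/6 at days 7 and 14, and at day 14 in WldS the probe set 1415862_at reads 5.94 and 5.77, close to its uninjured arrays.

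The promoters of the 3 melanin enzymes are shown because they share letters of the M-box, a motif that Mitf is known to bind. Of these enzymes only Tyrp1 was called higher after injury, and any part of Mitf or the motif in that was not tested. They were taken from RefSeq for GRCm38.p6, from windows of 250 bases before to 50 after a gene's start, and 5 of the 8 genes were matched, Pmel, Mlana and Slc45a2 not. Each line gives the sense strand 5′ to 3′. The Tyrp1 stretch is chr4:80833963-80834212 on the plus strand and ends at the base before the start. Tyr is chr7:87493513-87493574 on the minus strand, ending likewise, and Dct is chr14:118052350-118052437 on the minus strand, from further upstream. Capitals mark AGTCATGTGCT, the 11-letter M-box as the Tyrp1 promoter spells it, in Tyrp1 and Tyr, and the 8-letter core TCATGTGC in Dct.
Tyrp1: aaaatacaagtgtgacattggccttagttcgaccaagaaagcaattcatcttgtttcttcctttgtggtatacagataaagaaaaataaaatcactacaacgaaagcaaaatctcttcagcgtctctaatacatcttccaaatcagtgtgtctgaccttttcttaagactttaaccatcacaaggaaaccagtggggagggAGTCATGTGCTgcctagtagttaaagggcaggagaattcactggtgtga
Tyr: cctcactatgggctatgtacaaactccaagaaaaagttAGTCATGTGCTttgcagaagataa
Dct: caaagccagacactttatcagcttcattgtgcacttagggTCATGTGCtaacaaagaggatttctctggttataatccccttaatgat
The 11-letter motif began at position -49 in Tyrp1 and at -24 in Tyr, counted back from the start. Searched on both strands, it was in 7 of 32851 windows in all (0.0213%), which also included the complement gene C1qb. The 8-letter core, which lies inside it, was in 0.892% of windows and began at -151 in Dct. The 6-letter E-box CATGTG, which lies inside both, was in 14.2%. None of the 3 motifs was found in these windows of Ednrb or of Mitf, nor in those of Gpnmb, a pigment cell and macrophage gene described further on. A match is a string of letters and does not show that a factor was bound.

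Tyr, Dct and Slc45a2, which share the melanosome with Tyrp1, were called in 0 of the 18 comparisons that were fitted. Tyr, the enzyme that starts melanin synthesis, read between 5.56 and 5.94 on all 16 arrays. Its changes since day 0 lay between -0.23 and 0.03, with 95% intervals within -0.49 to 0.29. At the time of the highest Tyrp1 signal, day 7 in C57BL/6, its arrays read 5.56 and 5.61, against 5.72 and 5.91 uninjured. These Tyr values are of its brightest probe set. The others, with means of 4.73 and 3.72, were below the dim limit on all 16 arrays.

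Dct, the enzyme that acts on the melanin intermediate dopachrome, read between 5.68 and 6.22. Its group means in WldS were 5.98, 5.70, 5.90 and 6.02 at days 0, 3, 7 and 14, and in C57BL/6 they were 6.00, 5.77, 5.77 and 5.82. Changes since day 0 lay between -0.28 and 0.04, with intervals within -0.61 to 0.37. The 2.52 in WldS at day 14 and 4.13 in C57BL/6 at day 7 of the brightest Tyrp1 probe set lie outside them. These intervals cover the spread between arrays, and not how well the only Dct probe set, with a mean of 5.87, responds. A rise in Dct RNA could therefore be missed. Slc45a2 read between 6.92 and 7.33, and its changes lay between -0.04 and 0.24, with intervals within -0.32 to 0.52. Its other probe set had a mean of 5.47, near the dim limit. The lowest limma adjusted p among these injury comparisons was 0.170 for Tyr, 0.170 for Dct and 0.164 for Slc45a2.

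Mlana, which was too dim to be tested with the rest, read between 4.46 and 4.89 on all arrays, and its group means spanned 0.11. Fitted without the filter, its lowest limma adjusted p among the injury comparisons was 0.632. The means over all arrays were 5.73 for Tyr, 5.87 for Dct and 4.64 for Mlana, beside a dim limit of 5.37, and 6.73 for Pmel and 7.12 for Slc45a2. Only signals of the same probe set can be set against each other on an array, so these means do not rank the genes.

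Pmel, the fibril protein, moved little. It was called once, in C57BL/6 at day 14, where its arrays read 6.88 and 6.91, against 6.58 and 6.61 at day 0 (change 0.30 ± 0.10, limma adjusted p = 0.0387). In WldS it read 6.92 and 6.94 at day 14, against 6.80 and 6.64 at day 0, which was not called (0.21, adjusted p = 0.187). The arrays did not overlap in either pair, but in C57BL/6 they were also apart from day 0 where no change was called. These changes were -0.12 at day 3 (limma adjusted p = 0.406) and 0.075 at day 7 (adjusted p = 0.631). In WldS the arrays of days 3 and 7 overlapped those of day 0. With so few arrays per group, a lack of overlap is therefore only a description. The C57BL/6 call was lost under 11 of 24 other settings: quantile normalization, median centring, a replicate block, and leaving out any 1 C57BL/6 array of days 0, 7 or 14 or any 1 WldS array of day 3. Under these 11 the change was 0.26 to 0.32 (limma adjusted p = 0.0501 to 0.151).

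Mitf, the regulator of the pigment enzymes, read between 9.52 and 10.15 on every array and was not called higher in any comparison. In C57BL/6 it fell by 0.39 ± 0.13 at day 3 (9.67 against 10.05, limma adjusted p = 0.0231) and by 0.38 ± 0.13 at day 7 (9.68 against 10.05, limma adjusted p = 0.0316). At day 14 in C57BL/6 its arrays read 10.04 and 10.01, against 9.96 and 10.15 at day 0, and overlapped them. Neither call was robust: leaving out the second C57BL/6 array of day 0 gave -0.29 at day 3 (limma adjusted p = 0.156) and -0.28 at day 7 (adjusted p = 0.193). Without the first C57BL/6 array of day 3, the day 3 change was -0.24 (limma adjusted p = 0.231), and without the first or the second of day 7 the day 7 change was -0.30 or -0.45 (adjusted p = 0.199 and 0.0590). With its probe sets averaged, the C57BL/6 changes were -0.21 at day 3 (limma adjusted p = 0.134) and -0.21 at day 7 (adjusted p = 0.157), and neither was called. In WldS no change was called, the largest being -0.34 at day 14 (limma adjusted p = 0.0723). At day 7 in WldS the change of -0.25 (adjusted p = 0.145) was called in other settings, at -0.40 under quantile normalization (limma adjusted p = 0.0160) and at -0.30 with probe sets averaged (adjusted p = 0.0494). A second Mitf probe set, dim at a mean of 4.53, was called lower at day 7 in WldS (-0.34, adjusted p = 0.0469 in the limma fit over all probe sets) and not in C57BL/6 at any time.

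Ednrb, the endothelin receptor, rose in both strains at all 3 times after injury by its brightest probe set. In WldS nerves its signals were 9.25 and 9.04 at day 0, 10.47 and 10.58 at day 3, 10.25 and 10.08 at day 7, and 11.31 and 11.43 at day 14. In C57BL/6 nerves they were 9.05 and 9.49 at day 0, 10.5 and 11.02 at day 3, 11.58 and 11.54 at day 7, and 11.90 and 11.94 at day 14. Every injured array was above every uninjured one.

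In WldS, Ednrb was higher than at day 0 by 1.38 at day 3, 1.02 at day 7 and 2.22 at day 14 (2.60-, 2.02- and 4.67-fold, SE 0.17, limma adjusted p = 2.38e-05, 0.000435 and 6.76e-07). In C57BL/6 it was higher by 1.49 at day 3, 2.29 at day 7 and 2.65 at day 14 (limma adjusted p = 7.05e-06, 1.49e-07 and 8.75e-08), the last a 6.29-fold change. Its course differed from that of Tyrp1, since it was already raised at day 3. From day 3 to day 7 it rose further in C57BL/6 (0.80, limma adjusted p = 0.00478) and was not called in WldS (-0.36, adjusted p = 0.273). Between days 7 and 14 it rose in WldS (1.21, limma adjusted p = 0.000913) and was not called in C57BL/6 (0.36, adjusted p = 0.347). Of the other probe sets, 1423594 was called higher than day 0 at all 3 times in both strains (1.18 to 2.05 in WldS, 1.49 to 2.63 in C57BL/6). The dimmest, 1426314, changed less: in WldS by 0.55 at day 3 and 0.82 at day 14, with 0.35 at day 7 not called (limma adjusted p = 0.0985), and in C57BL/6 by 0.71, 1.61 and 1.82 at days 3, 7 and 14. Its step from day 7 to day 14 in WldS was not called either (0.47, limma adjusted p = 0.12). Without the first C57BL/6 array of day 3, the brightest probe set's step between days 3 and 7 in C57BL/6 was 0.54 and was no longer called (adjusted p = 0.0833).

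Between the strains, Ednrb was lower in WldS at day 7, at -1.4 log2 units (10.16 ± 0.12 in WldS against 11.56 ± 0.02 in C57BL/6, SD, n = 2 each, limma adjusted p = 0.000131). The change since day 0 was smaller in WldS at that time, with a difference of -1.28 ± 0.24 (SE, limma adjusted p = 0.00850), and it was not called different at day 3 (-0.11, adjusted p = 0.845) or at day 14 (-0.43, adjusted p = 0.543). The strain difference itself was not called at day 14 (-0.55, 95% interval -0.92 to -0.19, limma adjusted p = 0.0717). Both other Ednrb probe sets did call it there, at -1.10 (adjusted p = 0.0129) and -0.99 (adjusted p = 0.00253) in the limma fit over all probe sets. In the order of the groups, C57BL/6 at day 14 led with 11.92, followed without overlap by C57BL/6 at day 7 and WldS at day 14, though the step from day 7 to day 14 in C57BL/6 was not called. C57BL/6 and WldS at day 3 overlapped, as did the uninjured groups at the lower end.

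**Figure D3:**
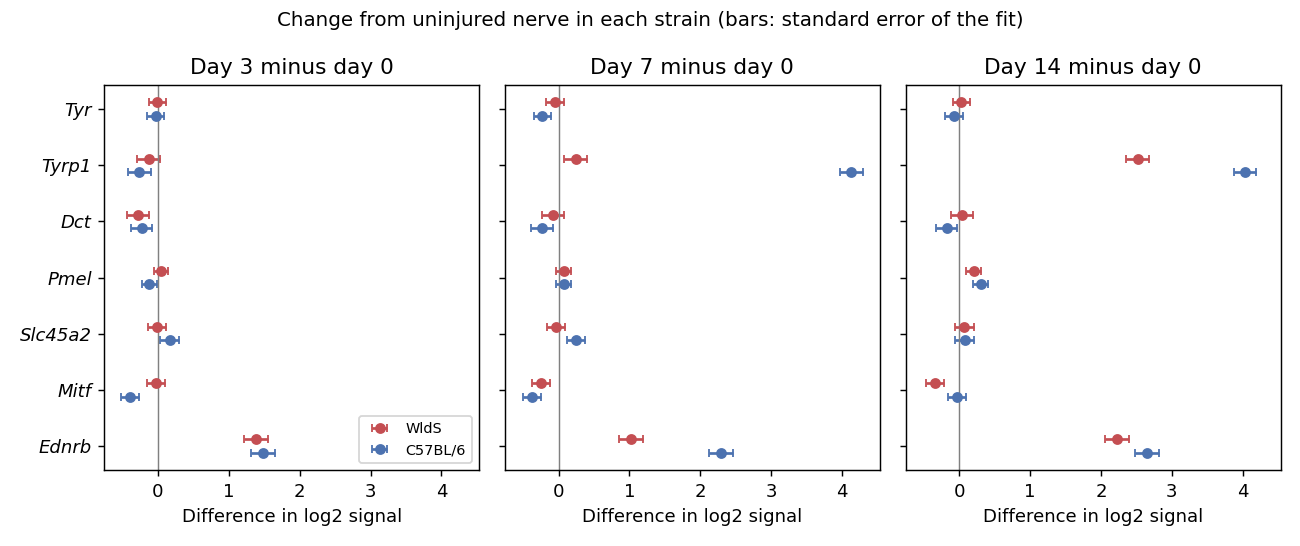
Change since day 0 in log2 units, with standard errors from limma, for the 7 tested melanocyte genes at days 3, 7 and 14, WldS beside C57BL/6. Tyrp1 changes by 0.24 in WldS and by 4.13 in C57BL/6 at day 7, and Ednrb is above 1 at every time in both strains.

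Counted over the 7 tested genes, the injury comparisons mostly called 1 or 2. In WldS, 1 was higher and 0 lower at day 3, where 36% of all 14545 genes were called in either direction, 1 and 0 at day 7 (35.2% of all genes), and 2 and 0 at day 14 (21.3%). In C57BL/6, 1 was higher and 1 lower at day 3 (41%), 2 and 1 at day 7 (36.1%), and 3 and 0 at day 14 (33.7%). Against these shares the number of genes called says little about the gene set. The largest changes were those of Tyrp1 and Ednrb. The genes were picked with earlier results of these arrays known. Tyrp1 also passed the dim filter only through the groups in which it was high. The sizes of these changes and the counts that follow are therefore a description. Between consecutive times, 0 were called from day 3 to 7 in WldS (6.62% of all genes) and 2 rose from day 7 to 14 (5.23% called, 1.61% higher), whereas 2 rose from day 3 to 7 in C57BL/6 (20.3% called, 9.6% higher) and 0 were called from day 7 to 14 (5.27%).

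For the strain comparisons, WldS minus C57BL/6, 0 genes were called at day 0 (0.227% of all genes) and 0 at day 3 (9.44%), 2 were lower at day 7 (6.83% called in either direction, 2.97% lower) and 1 at day 14 (6.46% and 3.55%). Averaged over the days, 2 were lower in WldS (17% and 9.72%), and these were Tyrp1 and Ednrb. The difference in change since day 0 was called for 0 genes at day 3 (6.16%), for 2 at day 7 (4.11%, 1.22% with the lower change in WldS) and for 1 at day 14 (1.58% and 0.674%), each of them lower in WldS.

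The genes whose group means followed those of Tyrp1 most closely were found by Pearson correlation over the 8 groups, among 3867 genes with a span of at least 1 log2 unit. The 5 highest were Htr2b, a serotonin receptor (r = 0.98), Tent5c, a poly(A) polymerase (r = 0.98), Sh3gl3, an endophilin (r = 0.97), Tle3, a corepressor (r = 0.96), and Arrdc3, an arrestin-related adaptor (r = 0.96). The means share arrays and the injury time course, so these values are a description. Sh3gl3 changed most among them, by 1.35 in WldS at day 14 and by 2.22 in C57BL/6 at day 7. Arrdc3 was not called in WldS at day 14 (0.25, limma adjusted p = 0.315). The other melanocyte genes were left out of the search.

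**Figure D4:**
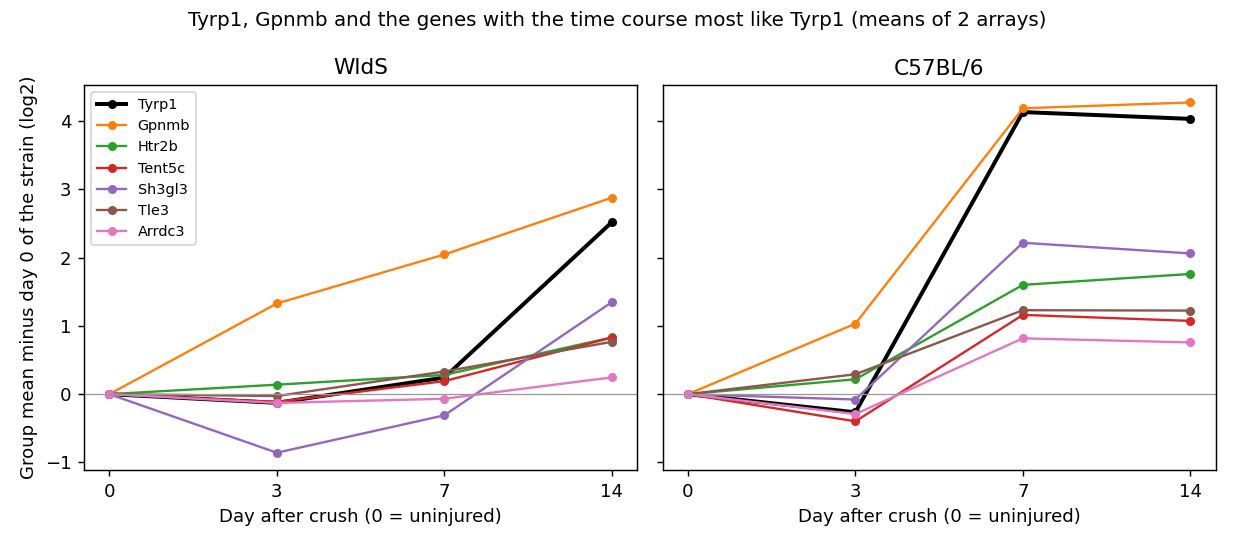
Group means of log2 signal minus the day 0 mean of the strain, for Tyrp1, Gpnmb and the 5 genes most correlated with Tyrp1, in WldS (left) and C57BL/6 (right), by days after injury (evenly spaced, not to scale). In C57BL/6 at day 7, Tyrp1 stands at 4.13, Gpnmb, described further on, at 4.19 and Sh3gl3 at 2.22.

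For Ednrb the 5 closest genes were Btg1, an antiproliferative gene (r = 0.99), Bcl2l11, a pro-death Bcl-2 family member (r = 0.98), Galnt6, a glycosyltransferase (r = 0.97), Bach1, a haem-regulated transcription factor (r = 0.97), and Tnfrsf21, a death receptor (r = 0.96). Galnt6 rose by 1.98 in WldS at day 14 and by 2.85 in C57BL/6 at day 7, and Tnfrsf21 by 2.45 and 2.65. The other tested members spanned 0.45 or less between groups, so genes that follow them are not described.

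Of 6 other genes of the endothelin pathway listed, among them ligands and converting enzymes, 5 were measured and 4 tested, and none of the 4 rose at all 3 times as Ednrb did. Edn1, the endothelin of endothelium, fell in both strains, with changes of -0.47 at day 7 and -0.69 at day 14 in WldS (limma adjusted p = 0.0272 and 0.00487), and of -0.79 and -1.0 in C57BL/6 (adjusted p = 0.000868 and 0.000165). Edn3, the ligand that drives melanoblast development, fell in C57BL/6, with changes of -1.04 at day 3, -0.82 at day 7 and -0.94 at day 14. It was not called in WldS, where its uninjured arrays spread from 6.40 to 7.27, with a change of -0.29 to -0.41. Ece2, an endothelin-converting enzyme, rose at day 3 in WldS (1.04) and in C57BL/6 (1.51) and at day 7 in WldS (0.88), and Ece1 rose in C57BL/6 at day 3 (0.42, limma adjusted p = 0.0137). The difference in change between the strains was not called for any of the 4. Edn2 was dim.

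Among regulators of the pigment lineage other than Mitf, 20 of 22 listed genes were tested. In WldS, 3 were higher and 6 lower at day 3, 6 and 3 at day 7, and 6 and 0 at day 14, where 36%, 35.2% and 21.3% of all genes were called. In C57BL/6 the counts were 5 and 2, 7 and 1, and 7 and 0, where 41%, 36.1% and 33.7% of all genes were called. The median change was between -0.09 and 0.29, against medians between -0.02 and 0.02 for all genes. Sox2, a transcription factor of immature Schwann cells and a progenitor gene, had the largest rise: it changed by -1.0, 1.5 and 2.82 at days 3, 7 and 14 in WldS and by 2.66, 3.29 and 3.38 in C57BL/6. Sox10, which acts upstream of Mitf in melanoblasts and is also a Schwann cell gene, fell at days 3 and 7, with changes of -1.10 and -0.91 in WldS and of -0.80 and -0.41 in C57BL/6. Tfec, a Mitf relative of macrophages and pigment cells, rose at day 3 by 1.98 in WldS and by 1.76 in C57BL/6. The receptor of melanocortin, Mc1r, was not called against day 0 at any time, with changes from -0.20 to 0.11.

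**Figure D5:**
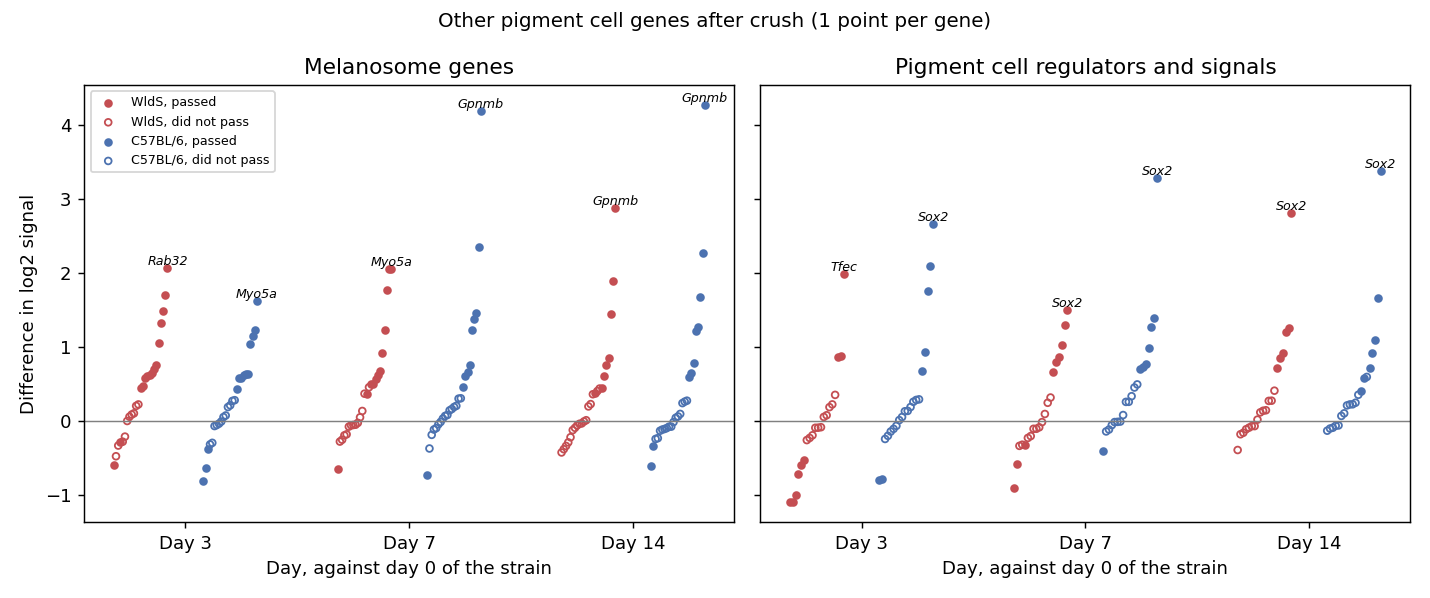
Change since day 0 in log2 units of melanosome genes (left) and pigment cell regulators (right) at days 3, 7 and 14, with 1 point per gene, WldS left of C57BL/6, filled where the gene was called, and the highest gene named. Gpnmb reaches 4.27 in C57BL/6 at day 14 and Sox2 reaches 3.38, while the lists' medians lie between -0.09 and 0.44.

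Of the genes of melanosome formation and transport, 25 of 30 listed were tested, most of which other cells also use in lysosomes. In WldS, 13 were higher and 2 lower at day 3, 11 and 1 at day 7, and 8 and 0 at day 14, with medians of 0.44, 0.37 and 0.19, beside 36%, 35.2% and 21.3% of all genes called. In C57BL/6 the counts were 10 and 3, 9 and 1, and 8 and 2, with medians of 0.21, 0.19 and 0.06, beside 41%, 36.1% and 33.7% of all genes called. Gpnmb, a glycoprotein of melanosomes and of activated macrophages, led. Its means in WldS were 8.46, 9.79, 10.51 and 11.34 at days 0, 3, 7 and 14, and in C57BL/6 they were 8.72, 9.76, 12.91 and 13.00. Its rise was smaller in WldS, with a difference of -2.14 at day 7 (limma adjusted p = 5.39e-05) and of -1.39 at day 14 (adjusted p = 0.00589). It was already raised at day 3, by 1.33 in WldS and 1.03 in C57BL/6. Myo5a, the motor that carries melanosomes, rose by 2.05 in WldS and 2.34 in C57BL/6 at day 7, and Rab32, which sorts enzymes to melanosomes, by 1.76 and 1.38. Tpcn2, a channel of melanosomes and lysosomes, rose in C57BL/6 by 1.67 at day 14 and was not called in WldS there (0.44), and this difference was called (-1.24, adjusted p = 0.0129).

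Markers of other cells in the segment moved in the same samples, and their part in the Tyrp1 and Ednrb changes was not tested. Of 11 macrophage markers, which include Gpnmb, 11 rose at day 3, 11 at day 7 and 6 at day 14 in WldS, and 11, 8 and 8 in C57BL/6, where 1 fell at day 14. Of all genes, 36%, 35.2% and 21.3% were called in WldS at days 3, 7 and 14, and 41%, 36.1% and 33.7% in C57BL/6. Between strains, 4 of the macrophage markers were lower in WldS at day 7 and 5 at day 14, where 2.97% and 3.55% of all genes were lower. Their mean level per array was 8.40 to 8.51 at day 0, 10.66 to 10.82 at day 3, 9.64 to 10.00 at day 7 and 9.30 to 9.35 at day 14 in WldS. In C57BL/6 it was 8.57 to 8.76, 10.61 to 10.65, 10.33 to 10.37 and 9.90 to 10.09. The list's mean was highest at day 3 in both strains, while its member Gpnmb was highest at day 14 in both.

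The shares of all genes called were again 36%, 35.2% and 21.3% in WldS at days 3, 7 and 14, and 41%, 36.1% and 33.7% in C57BL/6. Of 10 Schwann cell and glial markers, which include Sox2 and Sox10, 1 rose and 7 fell at day 3, 4 and 3 at day 7, and 8 and 1 at day 14 in WldS, and 3 and 4, 6 and 2, and 7 and 1 in C57BL/6. Their mean level was 10.01 to 10.10 in WldS and 10.26 to 10.29 in C57BL/6 at day 14, against 9.0 to 9.18 and 9.19 to 9.22 in uninjured WldS and C57BL/6 nerves, and it was 9.19 to 9.39 in WldS against 9.99 to 10.10 in C57BL/6 at day 7. Keratinocyte markers, which would come with skin, averaged 5.51 to 5.69 on all arrays, and at most 1 of the 7 tested was called in any injury comparison, always lower. Of 8 mast cell markers tested, 5 were higher in WldS than in C57BL/6 at day 3 and 3 at day 7. In these comparisons 9.44% and 6.83% of all genes were called in either direction.

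Adipocyte markers fell in most cases: of 8 tested, 3 were lower and 1 higher at day 3, 6 and 1 at day 7, and 3 and 1 at day 14 in WldS, and 6, 7 and 7 were lower and 0 higher in C57BL/6. Their mean level was 8.69 to 9.13 on injured WldS arrays, against 9.31 to 9.93 uninjured, and 8.27 to 8.99 on injured C57BL/6 arrays, against 9.98 to 9.99 uninjured. Of 5 skeletal muscle markers tested, 3, 4 and 4 were lower at days 3, 7 and 14 in WldS and 1 at each time in C57BL/6. Beside these adipocyte and muscle counts, 36%, 35.2% and 21.3% of all genes were called in WldS, and 41%, 36.1% and 33.7% in C57BL/6. The muscle mean was 6.79 on the second WldS array of day 0, against 5.27 to 5.86 on all other arrays. Without that array, the WldS change was 2.57 at day 14 for Tyrp1 (limma adjusted p = 1.56e-06), and for Ednrb it was 1.27, 0.91 and 2.12 at days 3, 7 and 14, each still called.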

How the data were processed

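RNA of pooled sciatic nerve segments was measured on Affymetrix whole-genome mouse arrays, 1 array per pool and 2 per group of strain and day. The authors' deposited file gives log2 signals per probe set, already normalized. The submitters' processing notes list GCOS 1.4, RMA, limma and Partek and say nothing of what each did. Of 45101 probe sets, 64 are controls, 34945 name 1 gene in the platform's annotation, 932 several and 9160 none. Symbols were looked up in RefSeq, where 18032 genes were found and 0 had a different symbol.

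A gene's value came from its brightest probe set on average. Genes with a mean below log2 5.37, the 30th percentile of the means of all 45037 non-control probe sets, were left out. The 14545 others were fitted in limma 3.58.1 (R 4.3.3) with 1 mean per group over all 16 arrays, empirical Bayes moderation and 18 contrasts. Changes are differences of log2 means with their standard errors. Benjamini-Hochberg adjustment ran over all genes within a contrast, and tests are two-sided. The melanocyte genes, the gene lists and the tests were chosen with earlier results of these data known. All 8 melanocyte genes, every measured endothelin gene, up to 4 called genes per list with the largest change in a contrast described, the 5 genes most like a member, and Mc1r, singled out after its values were seen, are named.

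The fit was tested on simulated data, with 50 genes changed at each size. For C57BL/6 day 7 minus day 0, a change of 0.5 was called in 22% of them, of 1 in 76% and of 2 in 96%. For the difference in change between the strains at day 7, the shares were 8%, 38% and 94%. Fewer genes were changed there than were called in the nerves, so these shares do not carry over directly. Alternatives were no dim filter, the mean of all probe sets of a gene, quantile normalization, median centring, another moderation and a replicate block. Others left out both arrays with a high 3′ to 5′ difference of control genes, used that difference as a covariate, or left out each array. Arrays have no read depth, and their number sets the precision.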

Additional observations from a re-analysis of the deposited data

Results flagged for a closer look

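The change since day 0 differed between the strains in 3 cases. For Tyrp1 the WldS change minus the C57BL/6 change was -3.89 at day 7 (limma adjusted p = 5.38e-07) and -1.51 at day 14 (adjusted p = 0.00506). For Ednrb it was -1.28 at day 7 (adjusted p = 0.00850).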

How the results depend on the processing

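Of 24 single changes called among the melanocyte genes, each recomputed under 24 alternatives, 557 of 576 values stayed called in the same direction, 19 lost the call and 0 reversed. Of the 24 alternatives, 16 each left out 1 array. Where that array was in neither group compared, the difference of means was unaffected, so the tally overstates how far the calls were tested. Of the 19, 18 belonged to Mitf and Pmel and 1 to Ednrb, so every Tyrp1 call held under these alternatives. None of them used a different single probe set. By 1415862_at alone, the WldS change at day 14 was not called from day 0 (0.13, limma adjusted p = 0.627) or from day 7 (0.43, adjusted p = 0.146). Another probe set did not call the Tyrp1 difference in change between the strains at day 14. With the mean of a gene's probe sets, the count of melanocyte genes called was 2 against 1 for WldS at day 7, 1 against 2 for C57BL/6 at day 3, 1 against 0 for WldS minus C57BL/6 at day 3, and 2 against 1 at day 14. Quantile normalization also gave 2 for WldS at day 7. Leaving out 1 array at a time gave 1 to 2 for C57BL/6 at day 3, 1 to 2 for C57BL/6 day 7 minus day 3 and 1 to 2 for WldS minus C57BL/6 at day 14, where Ednrb was added when either C57BL/6 array of day 3 was left out. With a replicate block, the count for C57BL/6 at day 14 was 2 against 3, since Pmel was lost (0.30, limma adjusted p = 0.0501), and no other member count changed. The replicate numbers showed no consistent pairing of the pools: over 28 pairs of groups the correlation of deviations ran from -0.58 to 0.19, with 5 above 0.1. These values cannot show that the pools were unpaired, since a negative correlation also marks a shared pattern of differences. With 2 arrays per group, changes in Tyr, Dct, Pmel, Slc45a2 and Mitf of the size of their intervals could be missed, and signals near or below log2 5.37 are limited by background.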
